A study of Mus musculus with 81 samples.

Results

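Mitosis and spindle genes are described here in neutrophils of inbred mouse strains. The group holds 40 listed genes, and 39 of them were measured, out of 19752 genes with a probe set named for that gene alone. Members were found by gene symbol in the platform's gene table, and each of the 39 had exactly 1 such probe set. Ccnb1, which encodes cyclin B1, had none and has no value below. The cells came from male mice aged 6 weeks, were sorted for the surface proteins CD11b and Ly6G, and were measured on 81 Affymetrix whole-transcript arrays, each with RNA of pooled mice. Titles place the arrays in 40 strain groups. C57BL/6J has 5 arrays, FVB/NJ and SWR/J have 1, and 37 groups have 2.

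The strains classed here as wild-derived are WSB/EiJ, PWD/PHJ, MSM/Ms, JF1/Ms and CAST/EiJ. The other 35 groups are classical laboratory strains. They are A/J, AKR/J, C3H/HeJ, CBA/CaJ, CBA/J, CE/J, C57BL/10J, C57BLKS/J(662), C57L/J (668), DDY/JclSidSeyFrkJ, FVB/NJ, KK.Cg-Ay/J, which carries the Ay allele by its name, LGJ, LP/J(676), MA/MyJ, MRL/MpJ, NOD/ShiLtJ, NON/ShiLtJ, NOR/LtJ, NZB/BINJ, NZW/LacJ, P/J, PL/J, RIIIS/J, SEA/GnJ, SJL/J, SM/J, SWR/J, 129S1/SvImJ, 5 groups with conflicting labels, and C57BL/6J. The group titled BPL carries the background label BALB/cByJ, the group titled BTBR carries BPL/1J, the group titled Balb carries BTBR T+ tf/J, the group titled C57BR carries CBA/CaJ and the group titled DBA2 carries DBA/1LacJ. No group was treated, and the groups compare strains and not the alleles of 1 gene. Arrays of a strain are separate pools of 2 or 3 mice by the series' design text.

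A cell in mitosis condenses its chromosomes, builds a bipolar spindle of microtubules, attaches each chromosome to it through the kinetochore, and splits once the anaphase-promoting complex destroys cyclin B. Transcripts of these genes accumulate late in the cell cycle and are scarce in resting cells. In bone marrow the early precursors of neutrophils divide, whereas their later stages and mature neutrophils do not. In these bulk samples, fewer cells of a type and less RNA per cell cannot be told apart.

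Values are log2 of the deposited probe set intensity, and a difference of 1 is a 2-fold change. Over all probe sets and arrays, 10% of values lay below 4.71, the median was 6.72 and 10% lay above 9.98. The defining neutrophil markers were high in every strain: strain means of Ly6g ran from 13.44 to 13.88, those of Itgam from 12.45 to 12.80 and those of S100a9 from 13.46 to 13.67. Each p-value is limma's, adjusted by Benjamini-Hochberg over the 24922 probe sets of the table, and a gene was called when its adjusted p was under 0.05. Probes follow the C57BL/6J reference sequence, and a variant under a probe can lower the intensity in another strain. Its part in any difference below was not tested.

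The mean of the 39 genes spread widely and almost continuously over the strains. NON/ShiLtJ was highest, with 9.06 and 9.16 on its 2 arrays, followed by titled Balb at 8.93, titled BTBR at 8.88, C3H/HeJ at 8.87, CBA/J at 8.86 and AKR/J at 8.81. NOR/LtJ was lowest, with 6.53 and 6.61, preceded by CAST/EiJ at 6.74, P/J at 6.80, KK.Cg-Ay/J at 6.82, JF1/Ms at 6.91 and C57BL/6J at 6.95 ± 0.38 (SD, n = 5). The range of strain means was 2.55, or 5.85-fold. The strain means had an SD of 0.72, against a pooled SD of 0.25 between arrays of a strain. Neighbours in this order lay close: 38 of the 39 steps from a strain to the next lower were under 1 pooled SD. Ranking this many strains over a range of 2.55 makes most steps small in itself. The count therefore does not show whether neighbours differ. The widest step, 0.26, lay between SM/J at 8.56 and NOD/ShiLtJ at 8.31, and the median step was 0.04.

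**Figure D1:**
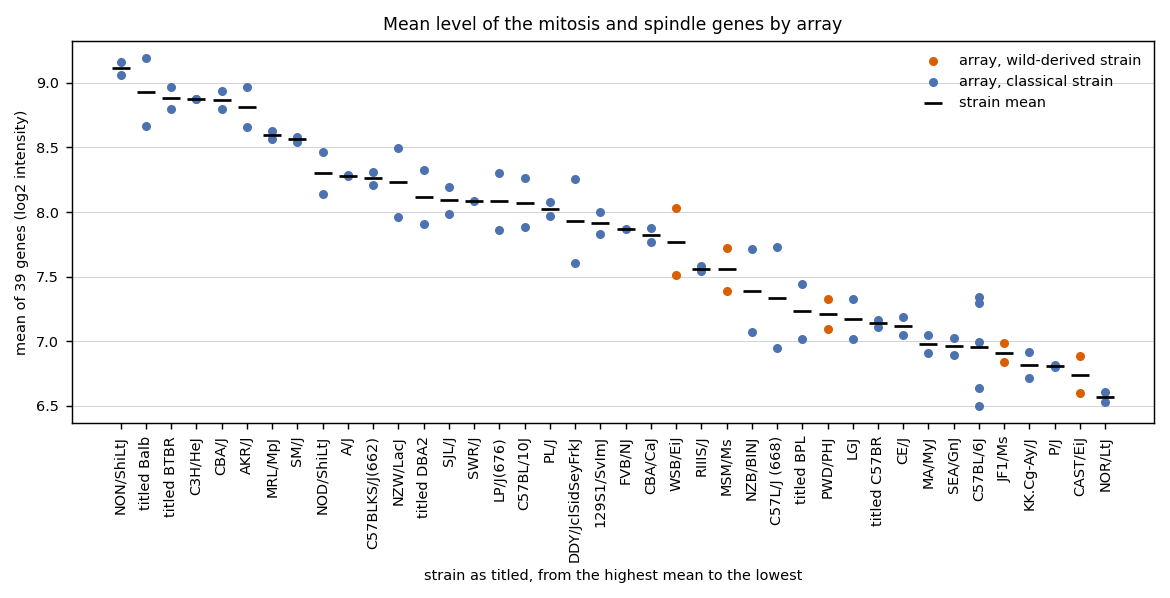
Mean log2 intensity of the 39 mitosis and spindle genes on each of the 81 arrays (points) and per strain (bars), with strains as titled ordered from the highest mean to the lowest. NON/ShiLtJ at 9.11 and NOR/LtJ at 6.57 form the ends, and most neighbouring strains overlap.

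The arrays of some strains lay far apart in this mean. C57L/J (668) had 6.94 and 7.73, DDY/JclSidSeyFrkJ had 7.61 and 8.26, NZB/BINJ had 7.07 and 7.71, and titled Balb had 9.19 and 8.67. The 5 arrays of C57BL/6J stood at 6.99, 6.50, 6.64, 7.35 and 7.29. The closest pair was that of C3H/HeJ, with 8.87 on both arrays. Array medians of intensity, between 97.2 and 114.8, did not order the arrays the same way, and their correlation with the mean of the genes over the 81 arrays was -0.08. NZB/BINJ array 1 had the lowest median correlation with the other arrays, 0.962, where the median array had 0.985.

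All 39 genes were called by the moderated F test over the 40 strains, where 56.0% of all probe sets were. All 39 also had a called range of 2-fold or more from the top to the bottom strain (24.5% of all probe sets), 32 spanned at least 4-fold (5.19%) and 17 at least 8-fold (1.52%). The median SD of strain means was 0.77 for the 39 genes, 0.14 for all probe sets and 0.20 for the 10816 brighter ones, whose mean was 7 or more. A median of 85.2% of a member's variance lay between strains, against 33.7% over all probe sets and 55.2% over the brighter ones. The member with the smallest spread, Nek2, was in the top 7.50% of all probe sets by this SD. The highest strain was NON/ShiLtJ, titled Balb, titled BTBR or CBA/J for every one of the 39, and the lowest was NOR/LtJ for 27.

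**Figure D2:**
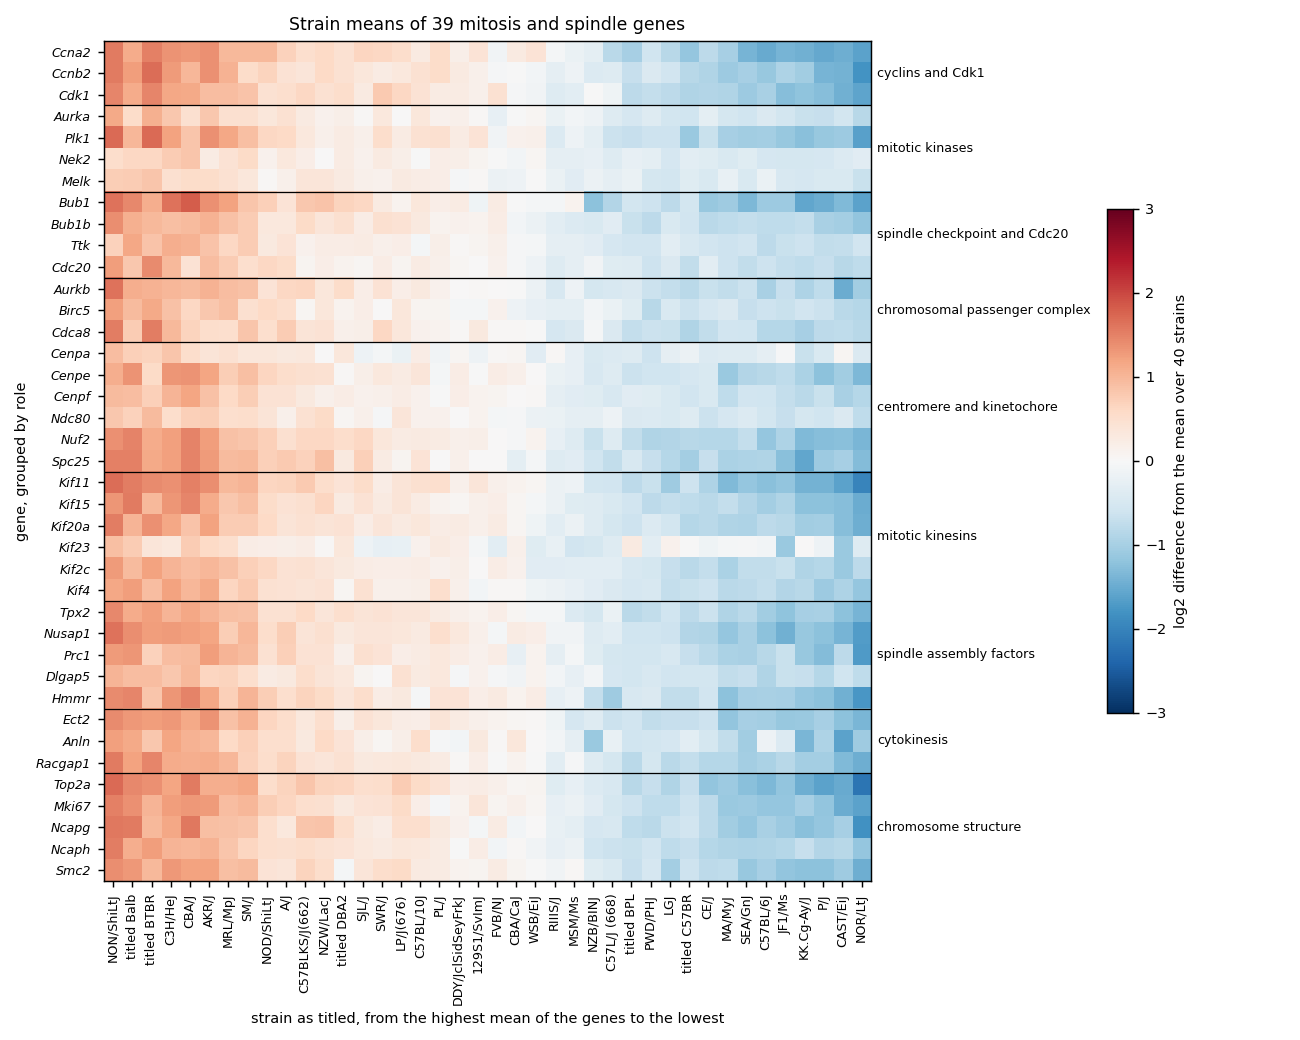
Strain means of the 39 genes as log2 differences from each gene's mean over 40 strains, with genes grouped by role down the page and strains ordered by the mean of all 39 genes. Colour runs from red at the high end to blue at the low end in nearly every row.

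Cyclins and their kinase drive entry into mitosis. Cdk1, the kinase that starts mitosis, had 9.65 and 10.67 in NON/ShiLtJ, its highest strain, and 7.01 and 7.22 in NOR/LtJ, its lowest (adjusted p = 6.3e-14 over the 40 strains). Over the 81 arrays its lowest, median and highest values were 7.01, 8.74 and 10.67. Ccnb2, a B-type cyclin that partners Cdk1, ranged over 10.9-fold: titled BTBR had 11.94 and 11.71, and NOR/LtJ had 8.38 on both arrays. Ccna2, the A-type cyclin of S phase and G2, ranged over 8.90-fold between 10.91 in NON/ShiLtJ and 7.76 in NOR/LtJ. The mean of these 3 genes had the largest SD over strains of the roles, 0.90.

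The mitotic kinases were split. Plk1, the polo-like kinase needed for a bipolar spindle, spanned 10.0-fold between 10.12 in titled BTBR and 6.79 in NOR/LtJ. Aurka, the Aurora kinase of spindle poles, spanned 3.96-fold. Nek2, a centrosome kinase, and Melk, a kinase of dividing cells, spanned 2.59-fold and 2.82-fold, among the smallest of the 39. Plk1 was the only kinase of these 4 with a range of at least 4-fold, although all 4 were called.

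Bub1, Bub1b and Ttk belong to the spindle checkpoint, which holds the anaphase-promoting complex until all chromosomes are attached, and Cdc20 is the activator it restrains. Bub1 had the third largest SD of strain means, 0.99, and stood at 8.93 in CBA/J and 5.53 in NOR/LtJ. Its array values ran from 5.38 on NZB/BINJ array 1 over a median of 7.10 to 9.04 on CBA/J array 1. Bub1b spanned 5.91-fold and Cdc20 4.80-fold. Ttk spanned 3.90-fold and had its lowest strain mean in C57BL/6J, at 5.53.

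The chromosomal passenger complex corrects faulty attachments and acts again in cytokinesis. Its kinase Aurkb stood at 10.37 and 10.50 in NON/ShiLtJ and was lowest in CAST/EiJ, at 7.22 and 7.44 (adjusted p = 1.2e-19). Birc5, also known as survivin, spanned 4.23-fold and Cdca8, known as borealin, 5.81-fold. All 3 genes had their highest strain mean in NON/ShiLtJ.

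Of the centromere and kinetochore genes, Spc25 and Nuf2, subunits of the Ndc80 complex that grips microtubules, spanned 8.40-fold and 7.28-fold. Ndc80 itself spanned 3.26-fold. The kinetochore motor Cenpe and the large kinetochore protein Cenpf spanned 6.54-fold and 4.47-fold. Cenpa, the histone H3 variant that marks centromeres, spanned 3.02-fold, with 9.81 and 9.99 in NON/ShiLtJ. The 6 genes thus covered a wide part of the range of spreads found among the 39.

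The 6 mitotic kinesins, motor proteins of the spindle, all spanned at least 4-fold. Kif11, the motor that pushes spindle poles apart, stood at 10.35 and 10.11 in NON/ShiLtJ and at 6.29 and 6.88 in NOR/LtJ, a 12.5-fold range of strain means. Kif15 spanned 8.29-fold, Kif20a 8.09-fold, Kif4 5.32-fold and Kif2c 5.23-fold. Kif23, a subunit of the central spindle complex, spanned 4.06-fold and was unlike the others in its order of strains. It was lowest in JF1/Ms, at 8.45 and 8.22, whereas NOR/LtJ had 8.82 and 9.32.

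Spindle assembly factors organise or bundle microtubules. Nusap1 spanned 9.89-fold, Hmmr 9.29-fold, Prc1 8.21-fold and Tpx2 7.16-fold, each lowest in NOR/LtJ. Dlgap5 spanned 3.81-fold and was lowest in C57BL/6J, at 6.76. In the cytokinesis group, Racgap1 and Ect2 spanned 8.16-fold and 6.97-fold. Anln, the scaffold of the contractile ring, spanned 7.19-fold and was lowest in CAST/EiJ, with 6.44 and 6.80.

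Chromosome structure genes held the largest range. Top2a, the topoisomerase that untangles chromosomes, spanned 14.9-fold, the widest of the 39. Its strain mean was 10.35 ± 0.16 in NON/ShiLtJ and 6.45 ± 0.30 in NOR/LtJ (SD, n = 2 each), and its array values had a median of 8.81. Mki67, the source of the proliferation antigen Ki-67, stood at 10.96 in NON/ShiLtJ and 7.83 in NOR/LtJ, an 8.74-fold range (adjusted p = 7.6e-15). Over the arrays its lowest, median and highest values were 7.56, 9.46 and 11.22. The condensin subunits Ncapg, Smc2 and Ncaph spanned 10.5-fold, 7.18-fold and 6.52-fold.

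The 39 genes kept nearly the same order of strains. Across the 40 strain means the 741 pairs of genes had a median correlation r of 0.95, and 94.7% of pairs exceeded 0.8. These correlations are descriptions, since both genes of a pair were read from the same arrays. The closest pair was Kif15 and Nuf2, at 0.99, and the least alike was Kif23 and Cenpa, at 0.62. Among the deviations of 79 arrays from their own strain's mean, which leave out strain differences, the median correlation was 0.71. The genes varied together between arrays of a strain as well as between strains.

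Genes differed in how steeply they followed the rest. A line was fitted for each gene to the mean of the other 38 over the 40 strains. Slopes were 1.42 for Top2a, 1.40 for Kif11, 1.37 for Ccna2 and 1.36 for Bub1. At the other end they were 0.42 for Kif23, 0.48 for Cenpa, 0.51 for Nek2 and 0.53 for Melk. A slope under 1 means that a change in the mean of the others went with a smaller change of that gene on the log2 scale.

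**Figure D3:**
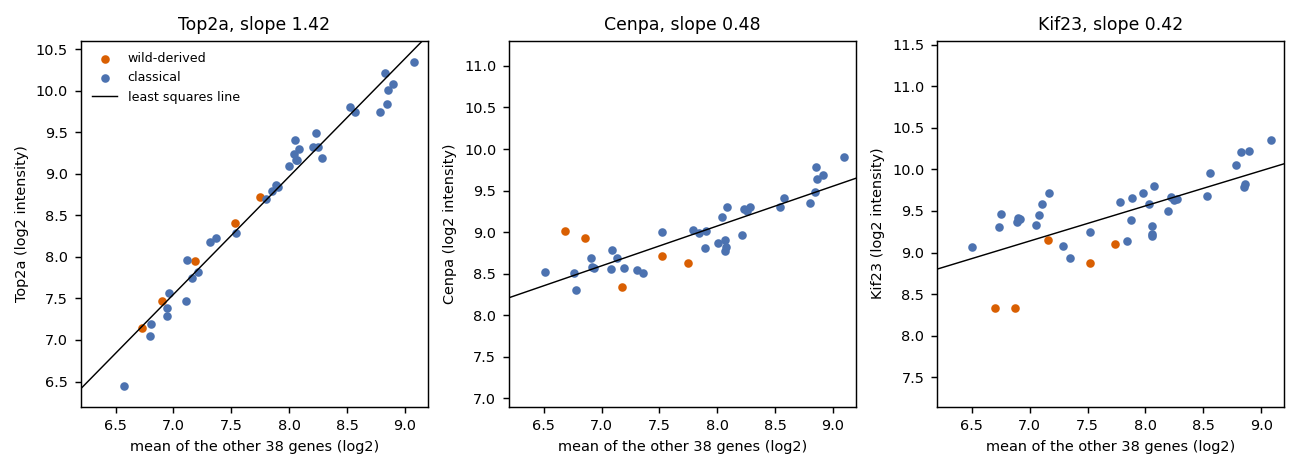
Strain means of Top2a, Cenpa and Kif23 (log2 intensity, vertical axes) against the mean of the other 38 genes (horizontal axes), with least squares lines of slope 1.42, 0.48 and 0.42 and wild-derived strains in orange. Top2a stays close to its line, while CAST/EiJ and JF1/Ms lie far below that of Kif23.

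Kif23 followed the others least closely, with a correlation of 0.71 with their mean, against 0.86 for Cenpa and at least 0.93 for each of the 37 remaining genes. JF1/Ms had a Kif23 mean of 8.34 where the line gave 9.09. In Cenpa the largest departure was CAST/EiJ, at 9.02 where the line gave 8.44. NZB/BINJ departed downward in Anln, by -0.74, and in Bub1, by -0.71. Titled BTBR departed upward in Cdc20 and Cdca8, by 0.57 each, and downward in Cenpe, by -0.54. These are single strain means of 2 arrays, and whether variants under the probes take part was not tested.

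Promoters of the genes are shown because the genes moved together. Late cell-cycle genes are known to carry the cell-cycle homology region, CHR, bound by the DREAM and MuvB complexes, and CCAAT boxes bound by NF-Y. RefSeq's table for GRCm38.p6 held 37 promoters for 35 of the 40 listed genes, Ccnb1 included, and none for Ccna2, Aurkb, Kif20a, Tpx2 and Dlgap5. The windows below are the 150 bases before the gene's start, written 5′ to 3′ on the gene's own strand. Capitals mark TTTGAA or its reverse complement TTCAAA, for CHR, and CCAAT or its reverse complement ATTGG. The first 4 are from the genes of mitotic entry and those with the steepest slopes, and the last 2 are from the genes with the smallest slopes.
Cdk1, chr10:69352913-69353062, minus strand: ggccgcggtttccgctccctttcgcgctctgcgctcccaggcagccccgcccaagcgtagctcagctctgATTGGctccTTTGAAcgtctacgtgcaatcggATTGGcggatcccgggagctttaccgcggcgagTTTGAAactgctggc
Ccnb2, chr9:70421555-70421704, minus strand: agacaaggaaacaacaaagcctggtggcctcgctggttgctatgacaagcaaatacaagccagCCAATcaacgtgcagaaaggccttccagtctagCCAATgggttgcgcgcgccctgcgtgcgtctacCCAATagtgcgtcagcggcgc
Top2a, chr11:99024190-99024339, minus strand: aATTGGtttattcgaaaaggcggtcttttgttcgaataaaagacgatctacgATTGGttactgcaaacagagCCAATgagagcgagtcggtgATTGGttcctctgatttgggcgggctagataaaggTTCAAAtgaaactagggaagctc
Kif11, chr19:37376232-37376381, plus strand: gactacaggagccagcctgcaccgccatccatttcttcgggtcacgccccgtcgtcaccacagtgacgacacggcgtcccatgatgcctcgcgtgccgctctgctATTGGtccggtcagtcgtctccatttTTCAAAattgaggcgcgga
Cenpa, chr5:30666736-30666885, plus strand: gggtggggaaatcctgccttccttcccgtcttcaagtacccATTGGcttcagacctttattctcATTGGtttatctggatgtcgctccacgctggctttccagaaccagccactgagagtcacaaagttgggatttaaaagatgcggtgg
Kif23, chr9:61946800-61946949, minus strand: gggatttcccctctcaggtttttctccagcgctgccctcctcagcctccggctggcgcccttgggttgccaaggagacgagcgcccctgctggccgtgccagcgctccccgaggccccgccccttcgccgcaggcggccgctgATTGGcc

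In Cdk1 a CHR match begins 15 bases before the start, in Top2a 23 and in Kif11 19. Ccnb2, Cenpa and Kif23 have no CHR match in these 150 bases, and Ccnb2 has 3 CCAAT matches. Among promoters not shown, Bub1, with a slope of 1.36, has no CHR match there, and Kif2c, with a slope of 0.93, has 1. A link between motif and slope was not tested. In the full 300-base window, 250 bases before to 50 after the start, 28 of the 37 promoters (75.7%) held CHR, against 17.9% of all 32851 promoters in the table. CCAAT was in 28 (75.7%), against 37.4% of all, and both were in 24 (64.9%), against 6.95%. In the 150 bases before the start the shares were 32.4% for CHR against 9.07% of all, 73.0% for CCAAT against 24.5% and 24.3% for both against 2.24%. Each motif was searched on both strands, and a base may serve both motifs where they abut. A match describes these letters in the reference strain and not binding.

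The design holds pairs of strains related by descent or breeding history, and these were compared within the 40-strain model. NOR/LtJ is a resistant relative of the diabetes-prone NOD/ShiLtJ that carries segments from C57BLKS/J. In NOD/ShiLtJ minus NOR/LtJ, 38 of 39 genes were higher and none lower, where 3.05% of all probe sets were higher and 2.50% lower. The median difference was 1.87, against -0.09 over all probe sets. Top2a stood at 9.32 and 9.05 in NOD/ShiLtJ and 6.66 and 6.24 in NOR/LtJ, a difference of 2.74 ± 0.41 (SE; adjusted p = 3.2e-06). Cdk1 had 9.51 and 8.76 in NOD/ShiLtJ, against 7.01 and 7.22 in NOR/LtJ, and Mki67 differed by 2.37 ± 0.34. All 39 genes were higher on both NOD/ShiLtJ arrays than on either NOR/LtJ array, as were 14.3% of all probe sets. Nek2, with 7.24 and 6.84 in NOD/ShiLtJ and 6.45 and 6.67 in NOR/LtJ, was the single gene not called (adjusted p = 0.12).

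NOR/LtJ was also lower than its other parent, C57BLKS/J(662), in a contrast added after the strain means were seen. In NOR/LtJ minus C57BLKS/J(662), 37 of 39 genes were lower (4.21% of all probe sets) and none higher (4.43%), with a median of -1.84. Top2a averaged 6.45 in NOR/LtJ and 9.49 in C57BLKS/J(662), a difference of -3.03 ± 0.41. Ttk, at -0.72 ± 0.24, and Nek2, at -0.54 ± 0.18, were not called. NOR/LtJ thus lay below both strains from which it descends, and these contrasts share its 2 arrays.

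NON/ShiLtJ was bred from the same outbred colony as NOD/ShiLtJ. In NON/ShiLtJ minus NOD/ShiLtJ, 16 genes were higher (2.71% of all probe sets) and none lower (3.07%), with a median of 0.78. Aurkb, at 10.37 and 10.50 in NON/ShiLtJ and 9.40 and 9.05 in NOD/ShiLtJ, differed most, by 1.21 ± 0.22. All 39 were higher on both NON/ShiLtJ arrays than on either NOD/ShiLtJ array, as were 28.6% of all probe sets. The count of called genes rests on few arrays. It was 3 without NOD/ShiLtJ replicate 2, 4 without NON/ShiLtJ replicate 2 and 10 without NON/ShiLtJ replicate 1. The megakaryocyte markers moved the other way in this pair: 2 of 4 were lower in NON/ShiLtJ, and their part in the result was not tested.

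CBA/J and CBA/CaJ are substrains of a single strain. In CBA/J minus CBA/CaJ, 24 genes were higher (1.14% of all probe sets) and none lower (0.566%), with a median of 1.03. Bub1 had 9.04 and 8.83 in CBA/J and 7.21 and 7.04 in CBA/CaJ, a difference of 1.81 ± 0.30 (adjusted p = 6.8e-05). Spc25 had 8.72 and 8.65 in CBA/J and 7.15 and 6.67 in CBA/CaJ, and differed by 1.78 ± 0.32. All 39 genes were higher on both CBA/J arrays than on either CBA/CaJ array, as were 25.5% of all probe sets. The count of called genes fell to 4 and 13 without CBA/J replicate 1 and 2, and to 9 and 6 without CBA/CaJ replicate 1 and 2. Titled C57BR, whose background label is CBA/CaJ, had a mean of the 39 genes of 7.14, against 7.82 in CBA/CaJ.

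In MRL/MpJ minus LGJ, 38 genes were higher (2.82% of all probe sets) and none lower (1.03%), with a median of 1.50. MRL/MpJ descends largely from the strain LG. Kif11 differed most, with 9.58 and 9.47 in MRL/MpJ and 7.27 and 7.75 in LGJ, by 2.02 ± 0.37 (adjusted p = 0.00015). Kif23, with 9.99 and 9.93 in MRL/MpJ against 9.50 and 9.67 in LGJ, was not called (adjusted p = 0.28). All 39 genes were higher on both MRL/MpJ arrays than on either LGJ array, as were 22.1% of all probe sets.

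NZB/BINJ and NZW/LacJ, the parents of a hybrid used as a lupus model, gave a less clear comparison. In NZB/BINJ minus NZW/LacJ, 29 genes were lower and none higher, where 21.3% of all probe sets were lower and 24.1% higher. The median was -0.81, against 0.10 over all probe sets. Bub1 had 5.38 and 6.40 in NZB/BINJ and 8.17 and 7.77 in NZW/LacJ, a difference of -2.09 ± 0.30 (adjusted p = 4.6e-07). Anln had 6.21 and 8.05 in NZB/BINJ and 9.12 and 8.54 in NZW/LacJ. Of the 39 genes, 32 were lower on both NZB/BINJ arrays than on either NZW/LacJ array, as were 26.3% of all probe sets. Only 5 genes were called without NZB/BINJ replicate 1, where the median was -0.47, and 4 without NZW/LacJ replicate 1, where it was -0.56. Marker lists of other cells moved in both directions in this pair. Of the B cell precursor markers, 7 of 11 were higher in NZB/BINJ, with summed strain means of 1057 intensity units in NZB/BINJ and 836 in NZW/LacJ. Of the T and NK cell markers, 3 of 8 were lower in NZB/BINJ and 1 was higher, with sums of 630 in NZB/BINJ and 1196 in NZW/LacJ. The erythroid precursor and the monocyte and macrophage markers each had 3 higher and 1 lower. The part of these cells in the result was not tested.

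**Figure D4:**
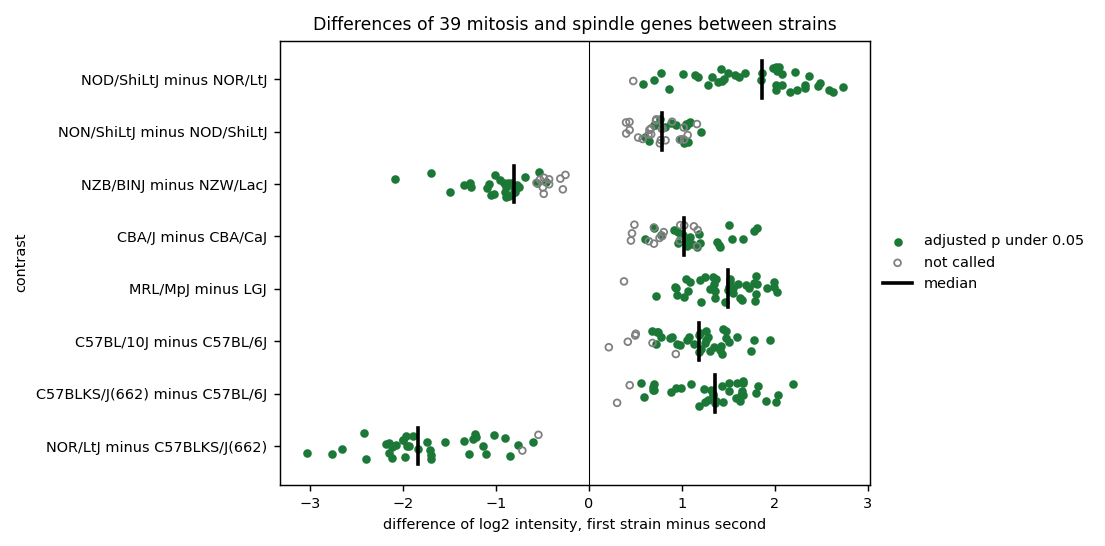
Differences of log2 intensity (first strain minus second) of each of the 39 genes in 8 contrasts, with filled points for an adjusted p under 0.05, open points for genes not called and bars for medians. All 39 genes lie on the same side of 0 in each contrast, with medians between -1.84 and 1.87.

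C57BL/6J, the reference strain, lay near the low end, and 39 contrasts set each strain against its 5 arrays. Of the 1521 gene and strain combinations, 855 (56.2%) were higher than C57BL/6J and 13 (0.85%) lower, where 5.34% of all probe set and strain combinations were higher and 4.70% lower. In 34 strains at least 1 gene was called. In 7 strains all 39 were higher: NON/ShiLtJ, titled Balb, titled BTBR, AKR/J, C3H/HeJ, CBA/J and MRL/MpJ. There the share of all probe sets that were higher ran from 6.12% in AKR/J to 8.77% in NON/ShiLtJ. In 23 strains most of the 39 were higher, where 1.89% to 8.77% of all probe sets were. Titled BPL, LGJ, titled C57BR, CE/J and MA/MyJ had no gene called. In these strains 1.07% to 3.42% of all probe sets were higher and 1.62% to 5.26% lower. NOR/LtJ had the most lower genes, 4, where 2.28% of all probe sets were lower. These contrasts share the C57BL/6J arrays, whose own means of the 39 genes spread between 6.50 and 7.35.

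The groups with C57 in their names differed in how far they lay from C57BL/6J. In C57BL/10J minus C57BL/6J, 33 genes were higher (1.89% of all probe sets) and none lower (0.766%). Top2a averaged 9.24 in C57BL/10J and 7.29 in C57BL/6J, a difference of 1.95 ± 0.34 (adjusted p = 0.00014), and Mki67 differed by 1.35 ± 0.28. The C57BL/10J arrays had Mki67 values of 9.46 and 9.84. Without C57BL/10J replicate 3, 6 genes were called. In C57BLKS/J(662) minus C57BL/6J, 37 genes were higher (2.55%) and none lower (1.11%). Cdk1 averaged 9.30 in C57BLKS/J(662) and 7.70 in C57BL/6J, and Kif23, at 9.67 in C57BLKS/J(662) and 9.37 in C57BL/6J, was not called (adjusted p = 0.31). C57L/J (668) had a mean of the 39 genes of 7.34 against 6.95 in C57BL/6J. It had 6 genes higher (8.35% of all probe sets) and none lower (10.1%). Titled C57BR, at 7.14 and with the background label CBA/CaJ, had none called, where 1.07% of all probe sets were higher and 1.62% lower.

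Wild-derived strains lay in the lower part of the classical range. Their means of the 39 genes were 6.74 in CAST/EiJ, 6.91 in JF1/Ms, 7.21 in PWD/PHJ, 7.56 in MSM/Ms and 7.77 in WSB/EiJ, with a mean of 7.24 ± 0.43 (SD, n = 5 strains). Classical strains averaged 7.88 ± 0.72 (SD, n = 35 strains) between 6.57 and 9.11. Of these, 22 lay above the highest wild-derived strain and 13 below it. With the strain as the replicate, 1 of 39 genes was lower in wild-derived strains and none higher, where 5.55% of all probe sets were lower and 6.64% higher. All 39 differences were negative, with a median of -0.65, against 0.03 over all probe sets. At an unadjusted p under 0.05 there were 16 of 39, against 26.6% of all probe sets in either direction.

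The called gene was Kif23, at 8.76 ± 0.40 in wild-derived and 9.56 ± 0.34 in classical strains, a difference of -0.80 ± 0.16 (SE; adjusted p = 0.00052). Its 5 wild-derived means were 8.34 in JF1/Ms, 8.34 in CAST/EiJ, 8.87 in MSM/Ms, 9.10 in WSB/EiJ and 9.15 in PWD/PHJ, all below the classical median of 9.58. Larger differences of genes with a wider spread were not called. Cdk1 differed by -0.89 ± 0.38 (adjusted p = 0.12), with 7.91 ± 0.58 in wild-derived and 8.80 ± 0.85 in classical strains. Top2a differed by -0.81 ± 0.46 and Mki67 by -0.81 ± 0.39. Cenpa differed least, by -0.27 ± 0.19. Strains that share ancestors, such as JF1/Ms and MSM/Ms, are not fully independent, and variants under the Kif23 probes were not tested.

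Other mitotic genes followed the 39. Of 58 measured genes in this list, 57 were called among strains (56.0% of all probe sets) and 55 spanned at least 2-fold (24.5%). Their mean correlated with the mean of the 39 at 0.99 over the 40 strains, and at 0.99 without NON/ShiLtJ and NOR/LtJ. In NOD/ShiLtJ minus NOR/LtJ 42 of these genes were called higher (3.05% of all probe sets) and 1 lower (2.50%). In MRL/MpJ minus LGJ 45 were higher (2.82%). In NZB/BINJ minus NZW/LacJ 30 were lower (21.3%) and 1 higher (24.1%). Cks1b, a subunit of cyclin-dependent kinase complexes, stood at 9.85 in NON/ShiLtJ and 6.78 in CAST/EiJ. Kif18b, a kinesin that shortens microtubules, stood at 9.94 in titled BTBR and 7.02 in NOR/LtJ.

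The regulators around mitosis varied less. In the list of mitotic transcription factors and DREAM subunits, 12 of 14 were called (56.0% of all probe sets) and 4 spanned 2-fold (24.5%). Foxm1, the forkhead factor that activates late cell-cycle genes, stood at 9.24 in NON/ShiLtJ and 6.56 in P/J and correlated with the mean of the 39 at 0.97. Lin9, a MuvB subunit, correlated at 0.93. Nfyb, a subunit of NF-Y, correlated at 0.27, and the median gene of the list at 0.32. Of the 15 subunits and cofactors of the anaphase-promoting complex, 13 were called and 7 spanned 2-fold, with an SD of the list mean of 0.14 and a median gene correlation of 0.31.

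Correlations over 0.8 with the mean of the 39 were found in 16 of 24 DNA replication genes and in 4 of 20 regulators of G1. Of the DNA replication genes, 23 were called (56.0% of all probe sets) and 17 spanned 2-fold (24.5%), and the list mean correlated at 0.95. The median gene stood at 0.84. Rrm1, the large subunit of ribonucleotide reductase, stood at 9.77 in NON/ShiLtJ and 5.83 in NOR/LtJ. Rrm2, its small subunit, stood at 9.43 in titled Balb and 6.22 in NOR/LtJ. In CBA/J minus CBA/CaJ 5 of the 24 were higher (1.14% of all probe sets), and in NON/ShiLtJ minus NOD/ShiLtJ 17 were (2.71%). Of 20 regulators of G1 and cell-cycle brakes, 19 were called and 12 spanned 2-fold, with E2f8, an atypical E2F repressor, at 10.02 in NON/ShiLtJ and 6.26 in P/J. Their list mean correlated at 0.89, but the median gene stood at 0.28 and the lowest, the kinase inhibitor Cdkn1c, at -0.26.

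Stages of neutrophil maturation were followed through granule genes. Azurophil granule and early neutrophil genes, made by dividing precursors, had 10 of 10 called, 4 of them with a 2-fold range (24.5% of all probe sets). Their list mean correlated at 0.81 with that of the 39. Ms4a3, a gene of early granulocyte precursors, stood at 8.04 in NON/ShiLtJ and 5.59 in PWD/PHJ and correlated at 0.88, the highest of the list. The median gene of the list correlated at 0.44, 2 of the 10 exceeded 0.8, and Cebpa and Srgn stood at -0.24 and -0.57. Specific granule genes had 6 of 10 called, a share close to the 56.0% of all probe sets, and their list mean correlated at 0.45 with a median gene at 0.17. Gelatinase granule and mature neutrophil genes had 9 of 10 called and correlated at -0.20. In this list the median gene stood at -0.24 and the lowest, Retnlg, a resistin-like gene of mature neutrophils, at -0.65. Of the 10 neutrophil markers 6 were called, none with a 2-fold range, and their list mean ran from 13.28 to 13.42. These probe sets are among the brightest on the arrays, and single markers correlated with the mean of the 39 between -0.65 and 0.49.

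**Figure D5:**
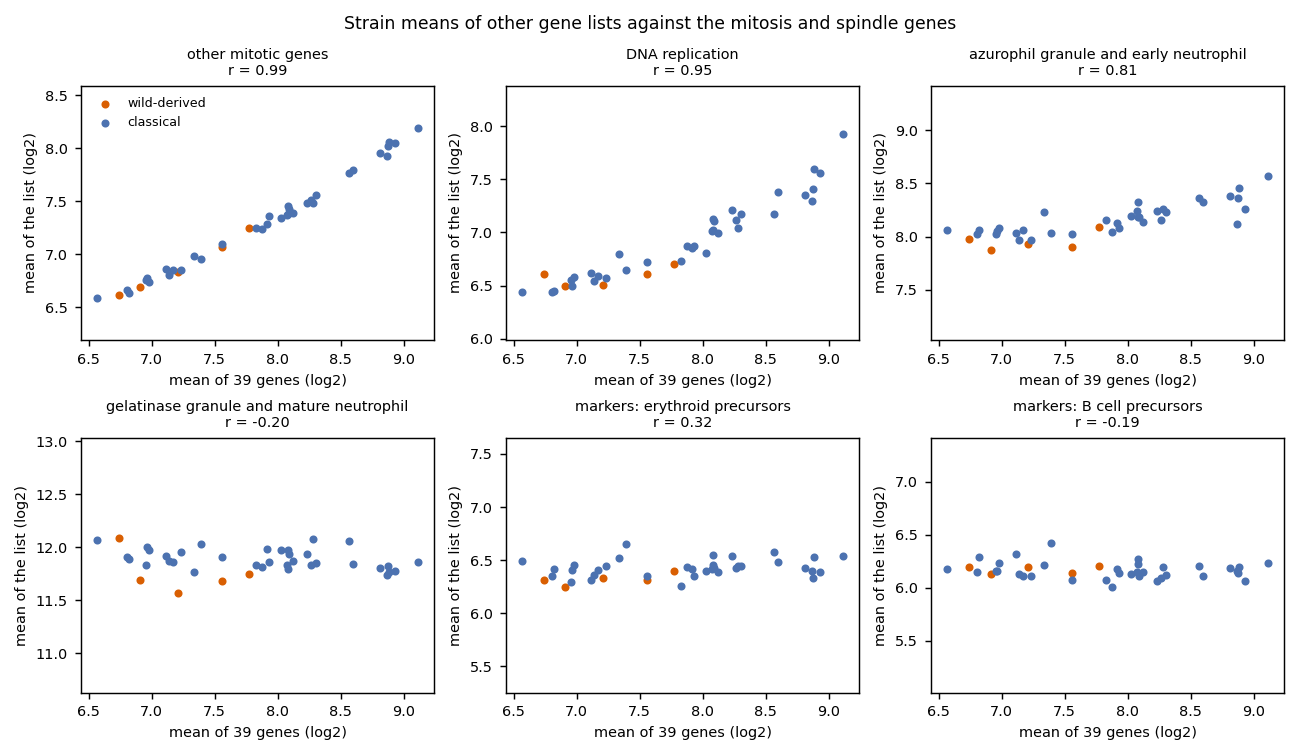
Strain means of 6 gene lists (mean log2 intensity, vertical axes, each spanning the same number of log2 units) against the mean of the 39 genes (horizontal axes), with wild-derived strains in orange. Other mitotic genes (r = 0.99) and DNA replication genes (r = 0.95) follow the 39, while the means of erythroid and B cell precursor markers (r = 0.32 and -0.19) vary little.

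Dividing cells of other lineages were looked for through their markers. Erythroid precursor markers were called in 4 of 11 cases, where 56.0% of all probe sets were. Their summed intensity ran from 839 to 1255 over the arrays, with the list mean correlated at 0.32. Within this list the median gene correlated at 0.03, Tfrc, the transferrin receptor, was highest at 0.68, and Klf1, Gata1 and Epor at -0.12, -0.21 and -0.20. B cell precursor markers were called in 3 of 11 cases, with sums of 756 to 1099 and a correlation of -0.19. The strain means of Vpreb1 lay between 5.77 and 6.50 and those of Rag1 between 5.50 and 5.85. Stem and progenitor markers were called in 4 of 9 cases, with sums of 607 to 1059 and a correlation of 0.15. No marker is at 0 in these values, since the intensities have a floor above 0.

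Of the remaining marker lists, monocytes and macrophages had 9 of 10 called (56.0% of all probe sets), sums of 1668 to 3004 and a correlation of 0.26. Single genes of that list lay between -0.50 for Csf1r and 0.60 for Vcam1, with a median of 0.11. T and NK cells had 4 of 8 called and a correlation of 0.30, with the cytotoxic granule gene Nkg7 highest at 0.81, a median of 0.01 and a lowest of -0.21. Eosinophils, basophils and mast cells had 5 of 12 called and a correlation of 0.09. Megakaryocytes had 2 of 4 called and a correlation of -0.06. Over the arrays their sums ran from 381 to 3706, with a median of 499. Whether a strain's sum rests on 1 of its arrays was not tested. In NOD/ShiLtJ minus NOR/LtJ 1 of the 4 megakaryocyte markers was higher (3.05% of all probe sets), with sums of 1490 in NOD/ShiLtJ and 492 in NOR/LtJ. In NON/ShiLtJ minus NOD/ShiLtJ 2 of the 4, Ppbp and Pf4, were lower (3.07%), with sums of 513 in NON/ShiLtJ and 1490 in NOD/ShiLtJ. In MRL/MpJ minus LGJ 1 marker of the 75 in the 8 lists was called, where 2.82% of all probe sets were higher and 1.03% lower. The part of these cells in the differences of the 39 genes was not tested.

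Among 6774 genes outside the 39 that reached a strain mean of 8 or more, those with the profile most like their mean were Cdca2, Nucks1, Spag5, Asf1b, Wee1, Ticrr, Ska2, Cks1b, Rrm1 and Knstrn. Their correlations over the 40 strain means ran from 0.98 to 0.99. Cdca2, Spag5, Wee1, Ska2 and Cks1b belong to the list of other mitotic genes and Rrm1 to DNA replication. Asf1b, a histone chaperone, stood at 10.66 in NON/ShiLtJ and 7.01 in NOR/LtJ. The most opposed were 1810013L24Rik at -0.75, Plek at -0.74, Bcl6 at -0.74, Foxo3 at -0.72 and Klf3 at -0.70. Their spreads were small: Bcl6, a transcriptional repressor, stood at 10.54 in NON/ShiLtJ and 11.14 in MSM/Ms, its lowest and highest strains, and Klf3, a Krüppel-like factor, at 9.98 in NON/ShiLtJ and 10.78 in NOR/LtJ.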

How the data were processed

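RNA of sorted bone marrow granulocytes from 81 pools of male mice was hybridised to Affymetrix whole-transcript arrays. The deposited values are linear probe set intensities, which the authors obtained with RMA and Affymetrix Power Tools, per the submitters' processing notes. From these deposited intensities log2 values were computed here without further normalization. The intensities lay between 5.30 and 19348, with array medians between 97.2 and 114.8, and the number of arrays limits the precision.

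Probe sets were named from the platform's gene table: 21425 had 1 symbol, 1399 several and 2098 none. Only those with 1 symbol were named, and a gene with several was given by its brightest. Arrays were grouped by title. A model with a mean per group was fitted over all 24922 probe sets with limma 3.58.1 in R 4.3.3 (41 residual degrees of freedom), with Benjamini-Hochberg adjustment over all of them. Wild-derived and classical strains were compared over strain means with limma, with the strain as the replicate. The calls were tested on simulated data. Arrays of a group are separate samples by the labels, and p-values of the model by group measure the spread between such pools. Those of wild-derived minus classical measure the spread between strain means.

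The members and the gene lists were chosen with earlier results of these data known. All members could be named. Outside them were named the 10 genes most and 5 least correlated with the members' mean, up to 4 genes of a list by spread over strains, and markers. Alternatives changed the normalization, the filter on dim probe sets, the variance prior, the grouping label and the arrays included.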

Additional observations from a re-analysis of the deposited data

How the results depend on the processing

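Each of the 39 genes kept its call over the strains under every alternative in which it was tested: other normalizations, filters, priors and groupings, each of 81 arrays left out, and, added after seeing the data, both NZB/BINJ or both C57L/J (668) arrays left out. The counts that moved by over 1.5 times were in the comparisons of pairs. Quantile normalization gave 18 genes in NZB/BINJ minus NZW/LacJ. Scaling to a common array median gave 10 in NON/ShiLtJ minus NOD/ShiLtJ and 14 in CBA/J minus CBA/CaJ. Grouping by background label, which adds the arrays titled C57BR to CBA/CaJ, gave 39 in CBA/J minus CBA/CaJ. The filter on a mean of 7 or more kept 30 genes, all called, and there the lowest strain mean was 6.84 and the highest 9.53. Apart from the effect of fewer arrays or genes, the cause was not tested.

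Leaving out 1 array at a time, counts ran from 31 to 38 in NOD/ShiLtJ minus NOR/LtJ, 3 to 20 in NON/ShiLtJ minus NOD/ShiLtJ, 4 to 35 in NZB/BINJ minus NZW/LacJ, 4 to 27 in CBA/J minus CBA/CaJ, 27 to 38 in MRL/MpJ minus LGJ, 35 to 39 in NOR/LtJ minus C57BLKS/J(662) and 6 to 35 in C57BL/10J minus C57BL/6J. A strain left with 1 array was assumed to vary like the others. Leaving out 1 strain at a time, Kif23 stayed the called gene in wild-derived minus classical, between -0.90 and -0.69. With the replicate number as a block, 17 genes were called in NON/ShiLtJ minus NOD/ShiLtJ, 29 in NZB/BINJ minus NZW/LacJ, 25 in CBA/J minus CBA/CaJ and 38 in each of the pairs NOD/ShiLtJ minus NOR/LtJ and MRL/MpJ minus LGJ. Deviations of arrays numbered 1 had a median correlation of 0.00 over 630 pairs, with single pairs between -0.50 and 0.51, and 24.9% of pairs exceeded 0.1. This median cannot show whether subsets of the arrays deviated together.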
